A study of Caenorhabditis elegans with 6 samples.

Results

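The pals genes of Caenorhabditis elegans encode proteins that carry the ALS2cr12 signature, a protein signature named after a human gene. They were taken as every protein-coding gene that the authors' deposited table names pals- followed by a number, which gave 38 of the 22389 genes with counts. Many members belong to the intracellular pathogen response, a transcriptional programme that the worm switches on when microsporidia or the Orsay virus infect its intestine. Within the family, pals-22 is a known repressor of that programme and pals-25 its antagonist and activator. Likewise pals-17 is a known repressor, with pals-16 and pals-20 acting as activators, while the promoter of pals-5 is a widely used reporter of the response. Many other members rise on infection and have no assigned biochemical role.

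Polyadenylated RNA was sequenced from adult worms grown on solid medium, in 3 libraries of the wild type N2 strain and 3 libraries of worms carrying a CRISPR deletion of linc-4, a long intergenic noncoding RNA gene, in the N2 background. The comparison asks how the transcriptome differs without linc-4. No infection and no other treatment is named in the labels. The sources used here do not give the extent of the deletion, the number of independent lines, or whether libraries came from separate cultures. The p-values therefore measure only the spread between these libraries, which may be technical. RNA came from whole worms, so fewer cells of a type and less RNA per cell cannot be told apart.

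Total counts per library ran from 3736372 to 12790323. The linc-4 gene itself had 193, 345 and 234 reads in the wild type libraries and 5, 1 and 1 in the linc-4 libraries. Levels are given as counts per 1000000 reads (CPM) after trimmed-mean scaling, and 3 reads correspond to 0.771 CPM in the shallowest library and 0.228 CPM in the deepest. Differences were tested with limma-voom over the 13778 genes with enough reads, with p adjusted over all of them and a threshold of 0.05. Among those genes 18.7% were called, 11.5% higher and 7.18% lower in linc-4 worms. That is 1591 higher of 2580 calls, and with upper-quartile scaling it was 2065 higher of 2541. Whole-body marker lists were not level between the groups. The summed level of 6 oocyte markers was 1338 to 1636 CPM in wild type and 858 to 935 CPM in linc-4 worms, and all 6 fell. Sperm markers summed to 27.1 to 38.2 CPM and 52.9 to 59.6 CPM, and 2 of the 4 tested rose (gsp-3 and spe-11). Summed intestine markers were 663 to 752 CPM in wild type and 625 to 678 CPM in linc-4 worms, with 1 of 6 higher (ges-1). In the epidermis list 1 of 6 was higher (bli-1), and none of the 4 muscle or 5 neuron markers was called. The part of these shifts in the pals values was not tested.

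Of the 38 members, 15 passed the filter on low counts and were tested, and 23 did not. Of the 15, 2 rose in linc-4 worms (pals-18 and pals-31), none fell and 13 were not called. Their log2 fold changes had a median of 0.36, against -0.01 over all tested genes. Summed over the whole family, the level was 99.8, 102 and 104 CPM in wild type and 115, 108 and 114 CPM in linc-4 libraries, or 102 ± 2.35 and 112 ± 4.001 CPM (SD, n = 3 each). Every linc-4 sum lay above every wild type sum. These sums are dominated by few genes, since pals-24, pals-23, pals-17 and pals-22 together held 55.3% of the reads of the family. The sum of these 4 was not higher in linc-4 worms, at 61.5 ± 4.79 CPM in wild type and 58.9 ± 3.37 CPM in linc-4 libraries. Within these 4 the directions differed. The mean of pals-17 was higher in linc-4 worms (12.8 and 16.5 CPM) and that of pals-22 similar (10.1 and 10.5 CPM). Those of pals-24 (21.2 and 18.3 CPM) and pals-23 (17.4 and 13.6 CPM) were lower. The higher family sum thus lay in the summed level of the other members, while pals-17 was offset by pals-24 and pals-23. The filter also shaped the 15. Of them 10 exceeded the required 1.43 CPM, taken before scaling, in all 3 wild type libraries. The genes pals-1, pals-6, pals-32 and pals-39 did so in only 1 or 2. The gene pals-31 did so in none, so it could enter the test only through its higher level in linc-4 worms. The log2 fold changes of pals-1, pals-6, pals-31, pals-32 and pals-39 were 0.81, 0.41, 1.19, 1.11 and 0.97. All lie above the median of 0.36, so that median depends in part on how these members passed the filter.

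**Figure D1:**
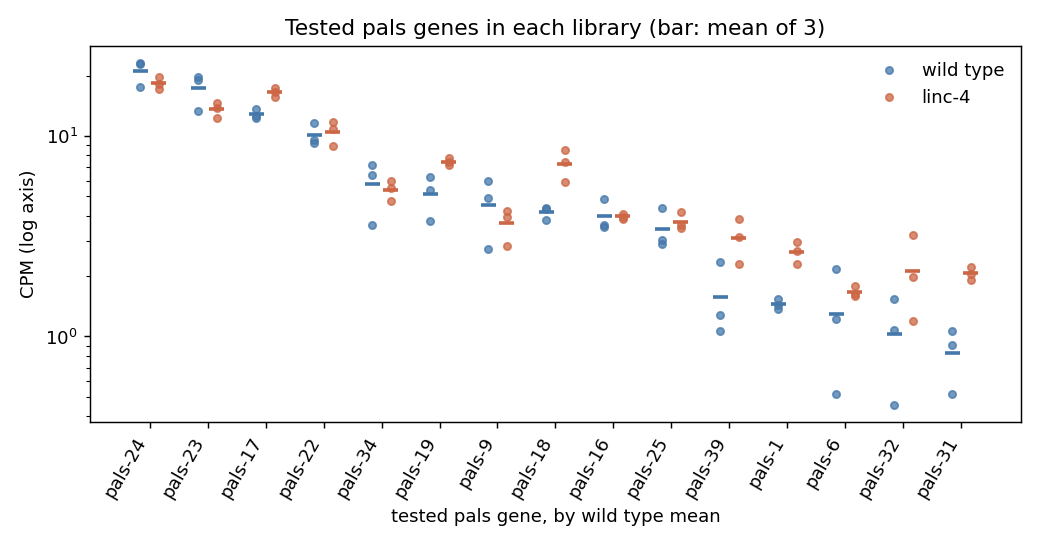
CPM of the 15 tested pals genes in each library (log axis), with wild type and linc-4 libraries as separate points and the group means marked. The libraries of pals-1, pals-17, pals-18, pals-19 and pals-31 separate by genotype, and the other 10 members overlap.

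The gene pals-18 lies on chromosome III from 1404792 to 1406230 on the plus strand (WBcel235), at the end of a run of 7 members, and has no assigned biochemical role. It had 17, 25 and 24 reads in the wild type libraries and 46, 50 and 112 in the linc-4 libraries. Scaled, these were 4.37, 3.81 and 4.33 CPM against 5.89, 7.43 and 8.53 CPM. Every linc-4 library was above every wild type library. The mean rose from 4.17 ± 0.315 to 7.28 ± 1.33 CPM, a log2 fold change of 0.80 with a standard error of 0.25 (limma-voom, adjusted p = 0.038), with a 95% interval of 1.21-fold to 2.52-fold. When 1 library at a time was left out, the call held without linc-4 replicate 1 and was lost without any one of the other 5 libraries, with adjusted p between 0.033 and 0.115. The authors' deposited table lists an adjusted p of 0.096 for this gene.

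The gene pals-31 stands apart from other members near the left end of chromosome V, from 636587 to 637501 on the plus strand. Its reads were few, 2, 7 and 5 in wild type and 15, 15 and 27 in linc-4 libraries. They correspond to 0.514, 1.07 and 0.902 CPM and to 1.92, 2.23 and 2.06 CPM. The groups did not overlap, and the linc-4 libraries lay close together. The gene was over the filter level in 0 wild type and 3 linc-4 libraries, so it was tested only through its higher linc-4 level. Neither the order of its libraries nor its call is independent of that filter. The log2 fold change was 1.19 with a standard error of 0.38 and a 95% interval of 1.30-fold to 4.02-fold (limma-voom, adjusted p = 0.044). This call held without wild type replicate 2 and was lost without any one of the other 5 libraries (adjusted p 0.035 to 0.119). It was also lost when genes were not filtered (adjusted p = 0.067), and the authors' deposited table lists an adjusted p of 0.18.

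The repressor pals-22 and the activator pals-25 were not called. Both genes are on the plus strand of chromosome III, pals-22 from 132418 to 134401 and pals-25 from 134494 to 137975, with 92 bases between them, and are known to share an operon. The repressor pals-22 was at 11.6, 9.59 and 9.20 CPM in wild type and 11.8, 8.91 and 10.9 CPM in linc-4 libraries. The activator pals-25 was at 4.37, 3.04 and 2.89 CPM and at 3.46, 4.16 and 3.58 CPM. For both genes the libraries of the groups interleaved. The difference was 0.07 ± 0.20 (log2 fold change ± SE) for pals-22, with an interval of 0.784-fold to 1.41-fold, and 0.15 ± 0.27 for pals-25, with an interval of 0.743-fold to 1.65-fold (limma-voom, adjusted p = 0.82 and 0.73). Changes within these intervals remain compatible with the reads of these libraries.

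Per kilobase of exon, pals-25 stood below its operon partner in all 6 libraries. The ratio of pals-25 to pals-22 was 0.314, 0.264 and 0.261 in wild type and 0.244, 0.388 and 0.274 in linc-4 libraries. The ranges overlap, with linc-4 replicate 2 the highest and linc-4 replicate 1 the lowest.

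Of the antagonistic regulators in the second cluster on chromosome III, the repressor pals-17 was at 13.6, 12.6 and 12.3 CPM in wild type and 17.3, 16.6 and 15.6 CPM in linc-4 libraries. All 3 linc-4 libraries exceeded all wild type libraries, yet the gene was not called, with a log2 fold change of 0.36 ± 0.17 (SE) and an interval of 0.995-fold to 1.65-fold (limma-voom, adjusted p = 0.15). The activator pals-16 was at 3.60, 3.50 and 4.87 CPM and at 4.10, 3.86 and 3.96 CPM. Its group means were 3.99 ± 0.764 and 3.97 ± 0.118 CPM, with overlapping libraries and an interval of 0.686-fold to 1.44-fold. The other activator, pals-20, was under the filter, with 0, 3 and 1 reads against 4, 1 and 4. The ratio of its summed reads, corrected for depth, was 1.30 with an exact 95% interval of 0.363 to 5.78, so this depth cannot set a direction for it. Its exons also share 502 bases with Y82E9BR.5 on the opposite strand, where reads cannot be assigned without strand.

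The remaining tested members carry no established individual role in the response. The most abundant, pals-24, was at 17.5, 23.1 and 22.9 CPM in wild type and 19.7, 18.1 and 17.1 CPM in linc-4 libraries. Its neighbour pals-23 was at 13.4, 19.6 and 19.1 CPM and at 13.8, 12.3 and 14.5 CPM. Both had lower means in linc-4 worms with overlapping libraries, wild type replicate 1 being the low one of its group. Their intervals were 0.663-fold to 1.11-fold and 0.588-fold to 1.04-fold (limma-voom, adjusted p = 0.38 and 0.20).

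The gene pals-19, next to pals-18, was at 5.40, 6.24 and 3.79 CPM in wild type and 7.43, 7.13 and 7.77 CPM in linc-4 libraries. The gene pals-1, alone on chromosome I at 11579861 to 11581986, was at 1.54, 1.37 and 1.44 CPM and at 2.305, 2.97 and 2.66 CPM. Neither gene overlapped between groups and neither was called, at 1.46-fold (1.03 to 2.08, adjusted p = 0.12) and 1.75-fold (1.09 to 2.82, adjusted p = 0.093; limma-voom). On chromosome V, pals-39 was at 1.29, 1.07 and 2.35 CPM and at 2.305, 3.86 and 3.12 CPM, and pals-32 was at 1.54, 0.457 and 1.08 CPM and at 3.20, 1.19 and 1.98 CPM. Their fitted ratios were 1.96 (1.13 to 3.40) and 2.15 (1.03 to 4.498), with 1 linc-4 library of each inside the wild type range (adjusted p = 0.082 and 0.13). The intervals are per gene and are not corrected over the 13778 genes, unlike the adjusted p.

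For the last 3 tested members the intervals included 1. The gene pals-34 was at 7.20, 6.39 and 3.61 CPM in wild type and 5.51, 4.75 and 5.94 CPM in linc-4 libraries, with an interval of 0.669-fold to 1.49-fold. In the chromosome I cluster, pals-9 was at 4.89, 2.74 and 5.95 CPM and at 4.23, 2.82 and 3.96 CPM, and pals-6 was at 0.514, 1.218 and 2.16 CPM and at 1.79, 1.63 and 1.599 CPM. All 3 overlapped between the groups, and the intervals of pals-9 and pals-6 ran from 0.550-fold to 1.39-fold and from 0.707-fold to 2.49-fold.

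Counted over the 15 tested members, 5 had every linc-4 library above every wild type library (pals-1, pals-17, pals-18, pals-19 and pals-31), where 21.2% of all tested genes did. That count includes pals-31 and pals-1, which exceeded the 1.43 CPM of the filter, taken before scaling, in 3 linc-4 libraries but in 0 and 1 wild type libraries. Among the 10 members over it in all 3 wild type libraries, 3 were so ordered (pals-17, pals-18 and pals-19). None of the 15 had every linc-4 library below, where 17.7% of all tested genes did, and 10 overlapped. The 2 calls among 15, which include pals-31, stand beside the 18.7% of tested genes that were called. Fitted changes were positive for 10 members and negative for 5, and 6 had an unadjusted p under 0.05 (limma-voom). The positive ones include pals-1, pals-6, pals-31, pals-32 and pals-39, which were not over the filter level in all 3 wild type libraries. Of these, all but pals-6 are also among the 6. No share over all tested genes is given for these counts, so they are not read as a result about the family.

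**Figure D2:**
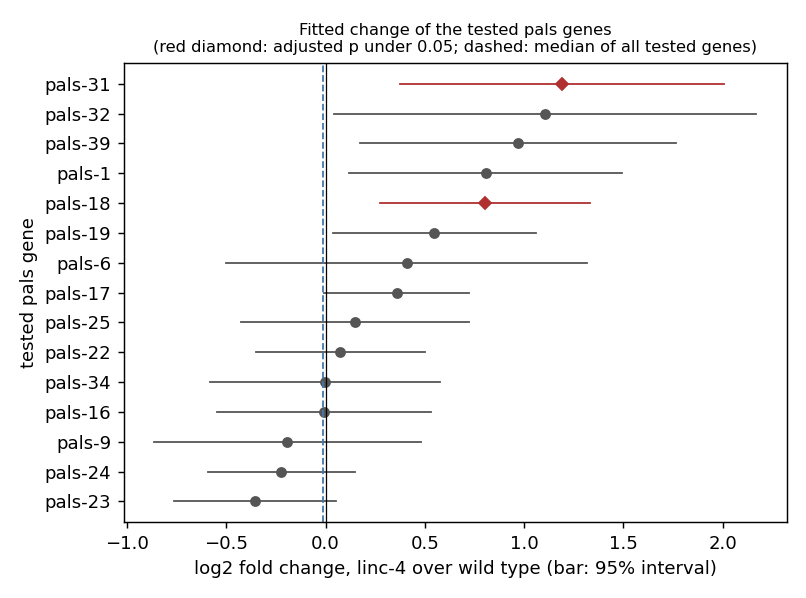
Log2 fold change, linc-4 over wild type, of the 15 tested pals genes with 95% intervals from limma-voom, the called genes marked. The values run from -0.36 for pals-23 to 1.19 for pals-31, and pals-18 and pals-31 are the 2 members past the threshold.

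Among the 23 members under the filter, pals-12 and pals-40 had no read in any library. For pals-40 this allows up to 0.187 CPM over the wild type group and 0.108 CPM over the linc-4 group. It sets no limit for pals-12, whose exons span 1191 bases and share 1185 of them with pals-3. Another 9 had between 1 and 9 reads over all 6 libraries and 12 had 10 or more, with a maximum of 56. The reporter gene pals-5 was among the lowest, with 0, 1 and 1 reads in wild type and 1, 1 and 4 in linc-4 libraries. The ratio for pals-5 was 1.73 with an exact interval of 0.310 to 17.6, which is compatible with a fall as well as a rise.

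For 20 of these members both groups had reads and a ratio could be formed, and its interval included 1 for 18. For pals-37, on chromosome V, reads were 3, 5 and 2 in wild type and 8, 12 and 26 in linc-4 libraries, a ratio of 2.66 (1.32 to 5.91). For pals-27, on chromosome III, they were 0, 4 and 2 against 6, 8 and 12, a ratio of 2.51 (1.01 to 7.44). In these 2 genes the interval lay above 1, and no member had an interval below 1. Of all 5801 untested genes with reads in both groups, 5.43% had an interval above 1 and 4.24% below. Such intervals cover counting error only.

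Of the 21 untested members with reads, 5 had every linc-4 library above every wild type library in CPM, namely pals-14, pals-27, pals-30, pals-33 and pals-37, and none had the reverse. Over the 7237 untested genes with reads these shares were 7.46% and 5.20%. For pals-30 the reads were 1, 0 and 0 against 5, 2 and 4, for pals-14 they were 1, 2 and 0 against 5, 3 and 6, and for pals-33 they were 2, 4 and 3 against 7, 10 and 13. The interval of each of these 3 ratios included 1. In mean CPM, 13 of the 21 were higher in linc-4 worms and 8 lower. Summed, the untested members were at 8.49, 6.55 and 7.58 CPM in wild type and 10.4, 9.51 and 10.3 CPM in linc-4 libraries.

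The other untested members, with reads summed over the 3 wild type and then the 3 linc-4 libraries, were low in both groups. These sums are not corrected for depth. On chromosome I, pals-13 had 19 and 30 reads, pals-3 12 and 15, and pals-4 12 and 28. Corrected for depth, their ratios were 0.913, 0.723 and 1.35, with intervals that included 1. In the same cluster pals-2 had 2 and 1, pals-7 4 and 2, pals-8 3 and 7, pals-10 1 and 1, pals-11 5 and 1, and pals-15 1 and 2. With linc-4 libraries together deeper than wild type ones, the last 6 show only that these genes were near the limit of detection. On chromosome III, pals-21 had 4 and 3 reads, pals-26 12 and 25 and pals-28 0 and 1, while pals-29 on chromosome IV had 2 and 5 and pals-38 on chromosome V 6 and 17.

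Levels differed widely within the family. Per kilobase of exon in wild type, pals-24 was highest at 20.9 ± 3.16 CPM per kb, followed by pals-17 at 14.8 ± 0.810, pals-23 at 11.7 ± 2.34 and pals-22 at 11.3 ± 1.42 (SD, n = 3). In this order pals-23 and pals-22 did not differ beyond their spread. Against 20105 protein-coding genes with a median of 3.07 CPM per kb, pals-24 stood at percentile 77.4 and pals-22 at 69.5. The activator pals-25 was near the middle at percentile 50.7, and the reporter gene pals-5 at 0.101 CPM per kb was at percentile 12.3. Exon lengths came from an annotation whose spans equal those of the deposited table for 11 of the 38 members, so the lengths behind the counts may differ.

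**Figure D3:**
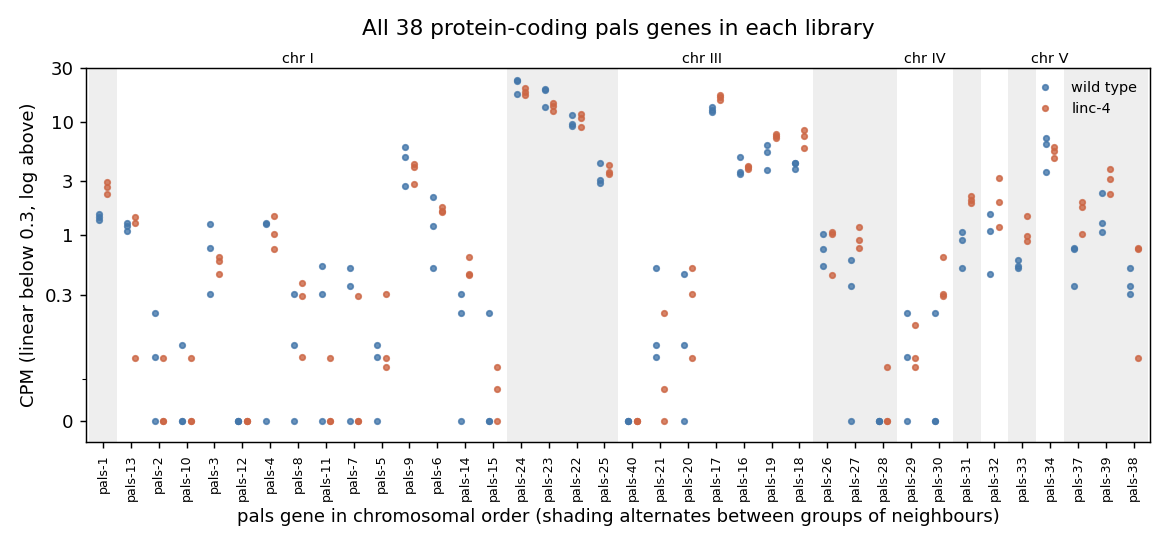
Level of all 38 pals genes in wild type and linc-4 worms, grouped by chromosome and ordered by position, with points for the libraries (CPM, axis linear near 0 and logarithmic above). The 4 highest wild type means, those of pals-24, pals-23, pals-17 and pals-22, are all on chromosome III.

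The members lie on chromosome I (15), chromosome III (14), chromosome IV (2) and chromosome V (7). With starts at most 50 kb apart counted as neighbours, 33 fell into 6 clusters and 5 stood alone. The chromosome III cluster from pals-40 to pals-18, between 1376945 and 1406230, holds pals-16, pals-17, pals-18, pals-19, pals-20, pals-21 and pals-40. Its summed level was 27.5, 26.8 and 25.6 CPM in wild type and 35.5, 35.2 and 36.2 CPM in linc-4 libraries, without overlap. That sum contains pals-17, pals-18 and pals-19, already counted above as ordered. The chromosome V cluster of pals-37, pals-38 and pals-39 summed to 2.57, 2.13 and 3.07 CPM and to 4.10, 5.79 and 5.86 CPM, also without overlap. This sum contains pals-37, likewise already counted as ordered.

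The chromosome III cluster from pals-24 to pals-25, between 120492 and 137975, did not share this order. Its sums were 46.8, 55.4 and 54.1 CPM in wild type and 48.8, 43.5 and 46.1 CPM in linc-4 libraries, which overlap. The largest cluster, 14 members on chromosome I between 13083321 and 13144588, was at 9.97 ± 3.24 and 9.26 ± 0.963 CPM. The small cluster of pals-26 to pals-28 on chromosome III summed to 1.10 ± 0.242 and 1.84 ± 0.185 CPM. Its libraries did not overlap either, at 1.03, 1.37 and 0.902 CPM in wild type and 1.92, 1.63 and 1.98 CPM in linc-4 libraries. That sum contains pals-27, already counted above as ordered. The sums of pals-29 and pals-30 were 0.222 and 0.582 CPM, with overlapping libraries. Cluster sums were not tested, and no share over sums of other genes is given beside them.

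Genes of other names lie among the clustered members, 11 with counts and 3 tested. Of these 3, 1 rose, beside 11.5% of all tested genes. It is C29F9.2, which sits between pals-23 and pals-22 on chromosome III from 130947 to 131751. The level of C29F9.2 was 25.2, 19.2 and 22.9 CPM in wild type and 43.1, 33.0 and 36.9 CPM in linc-4 libraries. These do not overlap, and the log2 fold change was 0.76 ± 0.17 (SE; limma-voom, adjusted p = 0.011). Its pals neighbours on both sides were not called, and the difference between them was not tested.

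Copies and overlaps limit how reads can be assigned. The sources used here do not say how the authors' counting treated strand or reads that match more than 1 copy. In the Ensembl 115 annotation 13 members share exon bases with another gene. The exons of pals-3 and pals-12 share 1185 bases on the same strand, and those of pals-19 and of the called gene pals-18 share 53. In the deposited coordinates pals-19 and pals-18 do not overlap, since pals-19 ends at 1403460 and pals-18 starts at 1404792. The exons of pals-37 share 925 bases with anr-30, those of pals-32 share 195 bases with str-46, and those of pals-20 share 502 of 988 bases with Y82E9BR.5. In each case the other gene is on the opposite strand, so reads of these pairs cannot be told apart without strand. Reads summed over wild type and then linc-4 libraries, not corrected for depth, were 4 and 9 for pals-20 and 27 and 46 for Y82E9BR.5.

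The response has many genes outside the family, and a list of them was read beside the pals genes. Of 12 with counts, 5 were tested, 1 rose and none fell, and the 5 had a median log2 fold change of 0.47. This 1 of 5 stands beside the 11.5% of all tested genes called higher. The gene that rose was skr-3, a Skp1-related subunit of a ubiquitin ligase, at 79.7, 74.9 and 84.1 CPM in wild type and 119.5, 111 and 100.5 CPM in linc-4 libraries. The groups of skr-3 did not overlap, at 1.38-fold (log2 fold change 0.47 ± 0.14 SE; limma-voom, adjusted p = 0.033). That call held without linc-4 replicate 3 and was lost without any one of the other 5 libraries (adjusted p 0.036 to 0.112). The other tested genes act in the same kind of ligase and were not called. For skr-4 the means were 28.6 ± 4.51 and 41.8 ± 8.21 CPM (adjusted p = 0.066) and for skr-5 1.25 ± 0.858 and 3.25 ± 1.5002 CPM (adjusted p = 0.12), while the cullin cul-6 was at 5.22 and 5.53 CPM and the RING protein gene rcs-1, listed as C28G1.5, at 38.9 and 46.7 CPM.

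The other 7 response genes were under the filter. Summed reads in wild type and linc-4 were 0 and 4 for F26F2.1, 3 and 5 for F26F2.3, 2 and 6 for F26F2.4 and 4 and 8 for chil-27. The decapping-related gene eol-1 had 5 and 18, and the F-box genes fbxa-75 and fbxa-158 had 1 and 0 and 12 and 31. These sums are not corrected for depth, and the linc-4 libraries were together deeper. Corrected, the ratios were 0.964 for F26F2.3, 1.16 for chil-27, 1.49 for fbxa-158, 1.73 for F26F2.4 and 2.08 for eol-1. The exact 95% interval of each of these ratios included 1. Like pals-5, the 3 F26F2 genes were near the limit of detection in both genotypes.

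Of 11 regulators and antiviral RNA interference genes, all tested, none rose and 1 fell, and the median log2 fold change was -0.34. Over all tested genes 7.18% were called lower, a share near that of 1 in 11. The gene that fell was rsd-2, which acts in RNA interference, from 55.0, 56.0 and 58.8 CPM to 40.6, 40.6 and 43.4 CPM. Its groups did not overlap, and the log2 fold change was -0.45 ± 0.14 (SE; limma-voom, adjusted p = 0.038). The rsd-2 call held without wild type replicate 2 and was lost without any one of the other 5 libraries (adjusted p 0.045 to 0.133). Oocyte markers were lower in the same libraries, and their part in this difference was not tested. The transcription factor gene zip-1, needed for part of the pals-5 response, was at 12.8 ± 2.66 and 15.2 ± 1.54 CPM (adjusted p = 0.37), and drh-1, the RIG-I-like sensor of viral RNA, was at 41.8 ± 12.7 and 27.4 ± 4.93 CPM (adjusted p = 0.069). The repressor pnp-1, listed as K02D7.1, was at 83.6 and 97.3 CPM (adjusted p = 0.30).

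The chil genes encode chitinase-like proteins, several of which respond to oomycetes, and some also belong to the intracellular pathogen response. Of 27, 8 were tested, 2 rose and none fell, and the median log2 fold change was 0.18. These 2 of 8 stand beside the 11.5% of all tested genes called higher. The level of chil-23 rose from 3.52 ± 0.386 to 8.44 ± 1.397 CPM, 2.32-fold (limma-voom, adjusted p = 0.0066), in all 6 fits that left out 1 library. That of chil-22 rose from 6.06 ± 1.30 to 9.94 ± 2.01 CPM, 1.68-fold (adjusted p = 0.049), and its call was lost without any 1 of the 6 libraries.

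**Figure D4:**
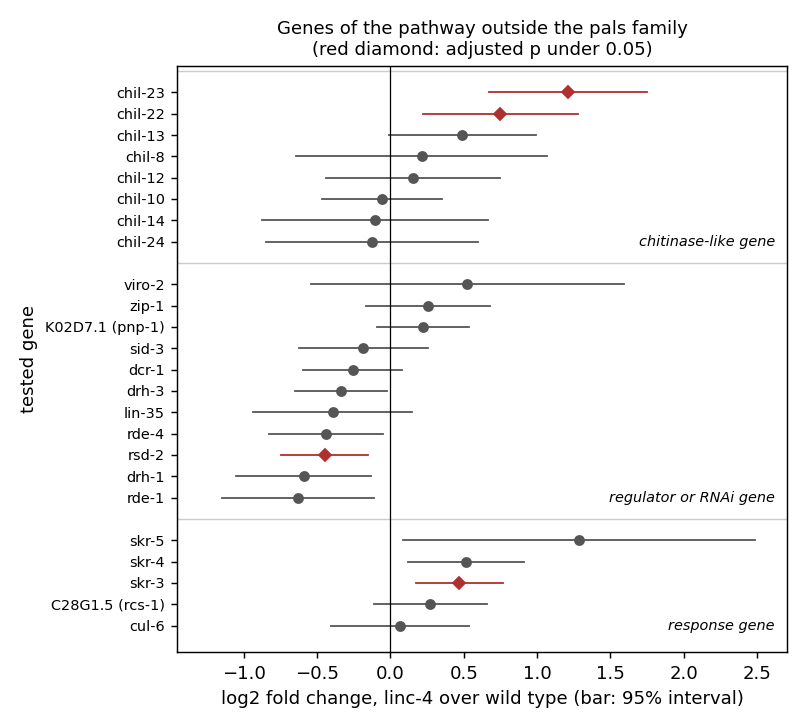
Log2 fold change, linc-4 over wild type, of the tested response genes, regulators and chitinase-like genes outside the pals family, with 95% intervals from limma-voom. The called genes are skr-3, chil-22 and chil-23 on the higher side and rsd-2 on the lower side.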

How the data were processed

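The 6 libraries are polyA RNA of adult worms. TopHat2 2.1.1, HTSeq 0.12.4, cutadapt 2.10, DESeq2 1.22.2 and the build WBcel235 are named in the submitters' processing notes; the sources used here do not give the settings. The authors' deposited table holds raw read counts per gene and library, and the log2 fold changes and p-values of the authors' own comparison. Of 46904 rows, 22389 carry counts and 24515 a question mark, read as no value.

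The deposited counts were tested with limma-voom (limma 3.58.1, R 4.3.3), two-sided, because the question marks kept count models from being admitted here; this test was chosen with earlier results known. Genes were kept with 1.43 CPM before scaling (10 reads at the median library) in 3 libraries and 15 reads in all, leaving 13778. Library sizes were scaled by the trimmed mean of M values, computed in a script (trimming 30% of the log ratios and 5% of the abundances). P-values were adjusted by Benjamini-Hochberg over all tested genes. Members under the filter are given as reads, with exact 95% binomial intervals for ratios corrected for depth; floors are 3 reads, and both cover counting error only. Exon lengths and overlaps come from Ensembl 115, coordinates from the deposited table. Library depth ran from 3736372 to 12790323 counts.

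The members and gene lists were chosen with earlier results of these data known. Every pals gene is named and, of the other lists, every called gene; the other genes named from those lists, and the genes in the closing section, were picked after their values were seen. Alternatives were other scalings and filters, the replicate number, each library left out, limma-trend on log2(CPM + 1), the authors' statistics and other cluster distances. The fit was tested on simulated data.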

Additional observations from a re-analysis of the deposited data

How the results depend on the processing

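Of the 195 values of tested pals genes over 13 alternatives, 180 kept their side of the threshold, 12 of these uncalled values with the other sign. In 15 the call of pals-18 or pals-31 was lost in the same direction, and no called value reversed. Against 2 called pals members, 1 was called with no filter (pals-18), 0 with the replicate block and 0 in the authors' deposited table (27 members listed with a p, 2 of them under 0.05 unadjusted), and 0 to 1 with a library left out; other scalings, limma-trend and the mean-count filter kept the count at 2. The paired fit is not the main one because same-numbered libraries did not deviate together (correlations 0.097, -0.11 and -0.41). Libraries of different numbers correlated from -0.43 to 0.49, and the labels pair no wild type library with a linc-4 library. In the paired fit pals-18 had an adjusted p of 0.064 and pals-31 of 0.074 (limma-voom). Against 1 called response gene, upper-quartile scaling gave 2, the replicate block 0 and leaving out a library 0 to 3. Against 1 called regulator, upper-quartile scaling, no filter, the replicate block and the authors' deposited table each gave 0, and leaving out a library 0 to 3. Against 2 called chil genes, median-of-ratios scaling, the replicate block, limma-trend and the authors' deposited table each gave 1, and leaving out a library 1. With no filter the count of chil genes was again 2, but chil-22 was lost (adjusted p = 0.054) and chil-11 was called. Among clustered members, no filter gave 2 called genes against 1, adding Y82E9BR.6. Upper-quartile scaling moved the median log2 fold change of all genes from -0.01 to 0.10. The cause of these differences was not tested. The filter left 23 pals members out of the test, and without it 36 were tested.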

Other observations

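The following genes were chosen after their values were seen. Inside the chromosome III cluster from pals-40 to pals-18, 2 untested neighbours had more reads in linc-4 worms. Y82E9BR.6 had 0, 3 and 2 reads in wild type and 12, 9 and 17 in linc-4 libraries, a depth-corrected ratio of 4.39 (exact 95% interval 1.73 to 14.3). The F-box gene fbxa-138 had 1, 1 and 2 reads against 9, 5 and 13, a ratio of 3.90 (1.36 to 15.3). Of untested genes with reads in both groups, 5.43% had an interval above 1. The other untested genes among clustered members overlapped between the groups, and Y26D4A.21 had a ratio of 0.688 (0.370 to 1.29). For Y82E9BR.6 and fbxa-138 every linc-4 library was above every wild type library in CPM, as in 7.46% of untested genes with reads.

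Another 2 chitinase-like genes outside the test showed the same order. The gene chil-11 had 1, 1 and 0 reads in wild type and 8, 5 and 8 in linc-4 libraries, a ratio of 6.07 (1.48 to 53.4). The pseudogene chil-28, not counted among the 27 protein-coding chil genes, had no read in wild type and 6, 3 and 8 in linc-4 libraries.

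The pseudogene pals-36, which was not counted as a member, had 2, 0 and 7 reads in wild type and 11, 8 and 8 in linc-4 libraries. Its levels were 0.592 ± 0.635 and 1.07 ± 0.413 CPM, with an interval of the ratio from 0.792 to 4.19 that includes 1.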
